A study of Mus musculus with 4 samples.

Results

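The clustered replication-dependent histone genes were taken as every gene of the mm10 annotation whose symbol starts with Hist1h, Hist2h, Hist3h or Hist4h. This gave 70 of 55450 annotated genes, of which 67 were protein coding and 3 were pseudogenes. CpG methylation was read from 1000 bp before the 5′ end of each gene to its 3′ end, at sites with at least 20 reads in every tumor, called qualified sites here. Of the 70 genes, 26 had a qualified site, against 25428 of all 55450 genes. The study used reduced representation bisulfite sequencing (RRBS), which cuts DNA at CCGG and reads the fragment ends after unmethylated cytosines have been converted, to compare anti-PD1-resistant with parental tumors. The 344SQP line is a parental mouse lung adenocarcinoma line, and 344SQR is its variant with acquired resistance to anti-PD1. Cells of either line were injected under the skin of the leg of female 129Sv/Ev mice aged 12 to 16 weeks. All mice in both groups received anti-PD1 at 10 mg/kg, for 4 doses from day 4, and tumors were taken 24 hours after the last dose. Each group held 2 tumors, each line is a single line, and the tumor tissue also held host cells. No tumor without anti-PD1 was analysed here.

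Replication-dependent histone genes supply the bulk of the histones that package newly copied DNA. They sit in clusters, are transcribed mainly during S phase, and most of them lack introns and give messages that end in a stem-loop instead of a poly(A) tail. A few members of the same clusters are used in the testis: Hist1h1t encodes a linker histone of spermatocytes, and Hist1h2ba and its neighbor Hist1h2aa encode an H2B and an H2A that replace the somatic forms in male germ cells.

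The summed coverage over all listed CpG sites was 116794455 reads in 344SQP tumor 1, 138331886 in 344SQP tumor 2, 160548303 in 344SQR tumor 1 and 174689402 in 344SQR tumor 2. The 26 genes with a qualified site held 271 distinct sites. The median coverage of these sites was 91, 115, 123 and 116 reads in the same order of tumors, and the lowest coverage was 20 reads. At that minimum 1 read is worth 5 percentage points. Reads copied from the same molecule could not be told apart, so every interval given here covers counting error only.

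Histone genes are near copies of each other, and many of their CpGs lie in reads that match several places. The windows of the 70 genes held 9728 CpG cytosines in the reference. A computed MspI digest placed 1195 of them within 50 bases of the end of a fragment of 40 to 220 bp. Of those, 390 lay in a converted read that occurs once among the computed fragment-end reads of the genome. The reads were not matched to the rest of the genome. Of these 390 cytosines, 249 qualified (63.8%). None of the other 805 cytosines in reach, whose read occurs more than once, qualified, while 22 qualified cytosines lay outside the computed reach. Over the whole genome, 72.4% of the computed fragment-end reads occurred once. The fragment size range is a setting chosen here and was not taken from the libraries.

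**Figure D1:**
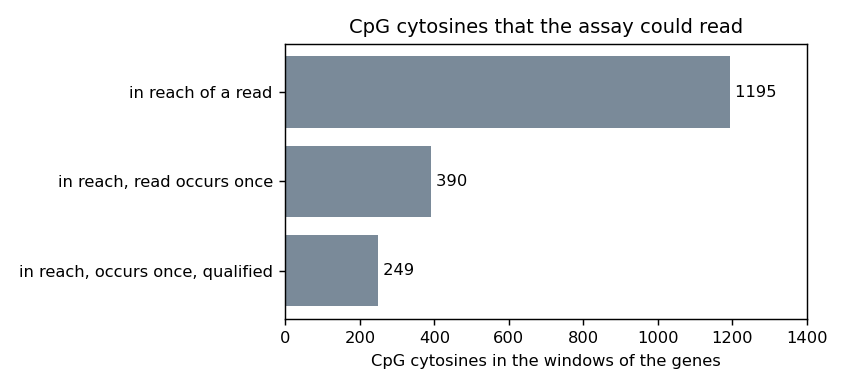
Horizontal bars give the number of CpG cytosines in the windows of the 70 histone genes that lie in reach of a computed read. The next bars count those in a read occurring once among the computed fragment-end reads, and those that also qualified. The bars fall from 1195 to 390 and 249.

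Of the 44 genes with no qualified site, 6 had no cytosine in reach, namely Hist1h1t and the H4 genes Hist1h4b, Hist1h4d, Hist1h4f, Hist1h4h and Hist1h4k. A further 29 had cytosines in reach but none in a read that occurs once. Among the H2A genes these were Hist1h2ad, Hist1h2ae, Hist1h2af, Hist1h2ag, Hist1h2ah, Hist1h2ai, Hist1h2aj (a pseudogene), Hist1h2ak, Hist1h2an, Hist1h2ao, Hist1h2ap and Hist2h2aa2. Among the H2B genes they were Hist1h2bb, Hist1h2bf, Hist1h2bg, Hist1h2bj, Hist1h2bk, Hist1h2bl, Hist1h2bm, Hist1h2bn, Hist1h2bp, Hist1h2bq and Hist1h2br. The H3 genes Hist1h3g, Hist1h3h, Hist1h3i and Hist2h3b and the H4 genes Hist1h4m and Hist1h4n completed this group. The last 9 genes had a cytosine in a read that occurs once, but fewer than 20 reads at each site in at least 1 tumor, namely Hist1h2ab, Hist1h2ac, Hist1h2bc, Hist2h2bb, Hist1h3a, Hist1h3b, Hist1h3c, Hist2h3c1 and Hist1h4j. By class, 5 of 6 linker H1 genes had a qualified site, against 6 of 20 H2A, 6 of 19 H2B, 4 of 12 H3 and 5 of 13 H4 genes.

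Most of the genes that could be read were almost unmethylated in all 4 tumors. In 20 of the 26 genes (76.9%) the mean over sites was under 5% in every tumor, as it was in 5003 of all 25428 genes (19.7%). All-gene windows include gene bodies. In the shorter promoter window, from 1000 bp before to 500 bp after the 5′ end, 18 of 23 histone genes and 52.6% of all 19156 genes were under 5% in every tumor. The median over the 26 genes was 1.85% and 1.93% in the 344SQP tumors and 1.71% and 2.04% in the 344SQR tumors. The medians over all genes were 30.6%, 33.8%, 29.5% and 28.5% in the same order.

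**Figure D2:**
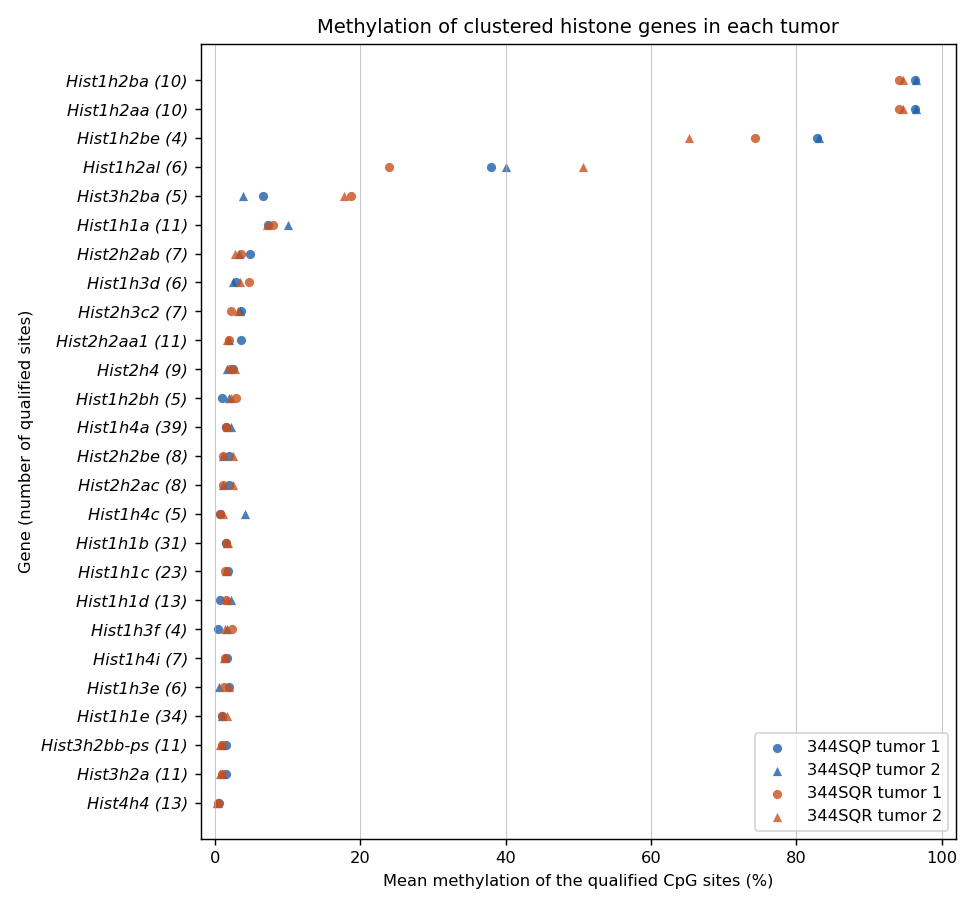
Each point is the mean methylation in percent of the qualified sites of a gene (vertical axis, with its number of sites) in a tumor. The testis genes Hist1h2ba and Hist1h2aa lie above 90% in all 4 tumors, 21 genes lie under 10%, and 3 genes lie between these groups in at least 1 tumor.

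The testis pair stood at the other end of the scale. Hist1h2ba (ENSMUSG00000050799, chr13:23933773-23934156, minus strand) and Hist1h2aa (chr13:23934462-23934851, plus strand) are transcribed away from each other, and their windows hold the same 10 qualified sites, so their values are a single measurement. Methylation was 96.4% and 96.5% in the 344SQP tumors and 94.1% and 94.6% in the 344SQR tumors. Both 344SQR tumors were below both 344SQP tumors. The group means were 96.4% ± 0.102 and 94.4% ± 0.336 (SD, n = 2 each), a difference of -2.07 percentage points. The 10 sites lie inside the coding regions, 3 in Hist1h2ba and 7 in Hist1h2aa, and no site between the genes qualified. Reads per site and tumor ran from 57 to 178.

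The measured stretches of both coding regions are shown because they carry this contrast with the other histone genes, read from the GRCm38 genome, 5′ to 3′ on the strand of each gene, with the CpGs that hold a qualified site in capitals. The first is chr13:23933990-23934156 on the minus strand and the second is chr13:23934548-23934686 on the plus strand.
Hist1h2ba: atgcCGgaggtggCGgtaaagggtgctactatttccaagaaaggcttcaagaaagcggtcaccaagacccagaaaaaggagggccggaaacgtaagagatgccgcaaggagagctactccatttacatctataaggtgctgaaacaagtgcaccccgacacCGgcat
Hist1h2aa: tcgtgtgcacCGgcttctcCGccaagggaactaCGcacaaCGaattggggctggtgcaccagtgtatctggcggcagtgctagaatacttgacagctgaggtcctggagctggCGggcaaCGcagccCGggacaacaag

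Among these 10 sites, 1 passed the test of single sites by line, at position 23934567 of chromosome 13 in the coding region of Hist1h2aa. It was methylated in 178 of 178 reads and 162 of 162 reads in the 344SQP tumors. In the 344SQR tumors it was methylated in 148 of 150 reads (98.7%, Wilson 95% interval 95.3% to 99.6%) and 137 of 151 reads (90.7%, interval 85.0% to 94.4%). The lower value came mainly from 344SQR tumor 2, and the intervals of 344SQR tumor 1 and the 344SQP tumors overlapped.

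Set against the other members, Hist1h2ba was higher by 85.7 and 85.8 percentage points in the 344SQP tumors and by 84.0 and 83.8 in the 344SQR tumors. The other 25 members, Hist1h2aa among them, had means of 10.7%, 10.7%, 10.1% and 10.9%. These differences between tumors are small beside the distance between Hist1h2ba and the rest. Counted over all genes, 1149 of 25428 (4.52%) were above 90% in every tumor.

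Hist1h1t, the other testis variant, had no qualified site, and no alternative setting gave it one. Its window held 48 CpGs, an observed to expected CpG ratio of 0.420 and 3 CCGG sites, with no fragment in the computed size range. Its listed sites had at most 5 reads. Summed over sites, 5 of 5 calls were methylated in 344SQP tumor 1 and 9 of 14 (64.3%, Wilson 95% interval 38.8% to 83.7%) in 344SQP tumor 2. In the 344SQR tumors the sums were 21 of 38 (55.3%, interval 39.7% to 69.9%) and 36 of 57 (63.2%, interval 50.2% to 74.5%). Calls on the same read are not independent, and a difference between the lines was not tested. Of the 35 genes without a qualified site that had at least 20 summed calls, 29 were under 5% and 2 were above 20%. These 2 were Hist1h1t and the H2B gene Hist1h2bc (62 of 109 calls, 56.9%). The window of Hist1h2bc spans 9710 bp, and its sum does not separate the promoter from the rest.

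The question the design asks is whether methylation differed between the resistant and the parental tumors. Each site was tested by a likelihood ratio test for a difference between the lines, and the sites of a gene were combined by Stouffer's signed z. At a false discovery rate under 0.05 over all genes, 5 of the 26 histone genes were lower in 344SQR (19.2%), against 49.3% of all genes. In the other direction, 2 were higher (7.69%), against 7.38% of all genes. Among all 6804 genes under 10% in every tumor, 16.1% were lower and 2.51% were higher. The histone genes under that level numbered 21. Of the 5 histone genes called lower, only Hist2h2aa1 was among them, and of the 2 called higher, only Hist1h3d. This test takes no account of how far apart tumors of the same line are. By tumor values alone, both 344SQR tumors were below both 344SQP tumors in 5 histone genes (19.2%, all genes 45.9%) and above them in 4 (15.4%, all genes 5.06%). Hist1h2ba and Hist1h2aa, with the same sites, count as 2 of the 5 genes in both of the lower counts. Over the 23 distinct sets of sites of the 26 genes, a count chosen after seeing the data, 4 sets were called lower and 2 higher. Hist1h2al, called lower, had its 344SQR tumors on either side of the 344SQP tumors.

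edgeR's quasi-likelihood test takes that variation into account, and it called 0 of 26 histone genes and 0 of 25415 genes in all (0.0%). At an unadjusted p under 0.05 it counted 1 histone gene and 3205 of all genes (12.6%). The mean over the 26 histone genes was 14.0% and 14.0% in the 344SQP tumors and 13.4% and 14.1% in the 344SQR tumors. The difference of the group means was -0.293 percentage points, from 14.0% ± 0.0253 to 13.7% ± 0.499 (SD, n = 2 each), smaller than the spread between the 344SQR tumors. The median difference over the histone genes was -0.141, over all genes -1.12, and over the 6804 genes under 10% in every tumor -0.156 percentage points. With 2 tumors against 2, a two-sided exact permutation test cannot go below p = 0.33, and Hist1h2ba reached that value.

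For Hist1h2ba and Hist1h2aa the combined test gave an adjusted p of 4.89e-06, while edgeR gave a log2 odds ratio of -0.70 and an adjusted p of 0.480. Over the 1149 genes above 90% in every tumor, the median difference was -0.767 percentage points and 21.0% were called lower.

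Hist3h2ba, an H2B gene on chromosome 11 (chr11:58948920-58949533, plus strand), had the largest difference among members with at least 5 sites. Methylation was 6.61% and 3.77% in the 344SQP tumors and 18.7% and 17.7% in the 344SQR tumors. Both 344SQR tumors were higher, and the groups did not overlap. The means were 5.19% ± 2.01 and 18.2% ± 0.696 (SD, n = 2 each), a difference of 13 percentage points. The combined test, which takes the sites as independent, gave an adjusted p of 4.12e-07. In edgeR the log2 odds ratio was 1.89, with an unadjusted p of 0.0287 and an adjusted p of 0.370, so the call was not made there.

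Both 344SQR tumors were above both 344SQP tumors at 4 of the 5 sites of Hist3h2ba, and 2 of these passed the test of single sites. Of the 5 sites, 4 lie at the start of the coding region and 1 in the 3′ UTR. These 4 coding sites lie on the same strand within the length of 1 read, at nearly equal coverage. They therefore largely share reads, while the tests take them as independent. At 58948966 the methylated reads were 2 of 29 and 0 of 29 in the 344SQP tumors, and 8 of 32 and 15 of 55 in the 344SQR tumors. At 58948971 they were 2 of 29 and 1 of 29, then 8 of 32 and 20 of 55. The site 58948955 stood at 3.45% and 3.45% in the 344SQP tumors and 21.9% and 5.45% in the 344SQR tumors, and 58949439 at 8.93% and 8.51%, then 18.4% and 12.1%. The first site, 58948944, stood at 6.90%, 3.45%, 3.23% and 7.41% in the 4 tumors, with no separation of the lines. Coverage was 29 to 87 reads, so the intervals were wide: at 58948971 in 344SQR tumor 1 the 25% had a Wilson 95% interval of 13.3% to 42.1%. The stretch with the 4 coding sites, chr11:58948940-58948976 on the plus strand, starts at the first codon, with the measured CpGs in capitals.
Hist3h2ba: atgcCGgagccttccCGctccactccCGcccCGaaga

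The neighboring members of the Hist3 cluster did not share this level. Hist3h2a, an H2A gene, and the pseudogene Hist3h2bb-ps share 11 sites, which stood at 1.52%, 0.936%, 0.947% and 0.741% in the 4 tumors. The difference was -0.383 percentage points, with an adjusted p of 0.928 in the combined test. It was -0.0922 without 344SQP tumor 1 and -0.673 without 344SQP tumor 2. Of the 11 sites, 58954884 was called lower, at 8.33% and 6.61% in the 344SQP tumors and 2.90% and 1.91% in the 344SQR tumors.

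**Figure D3:**
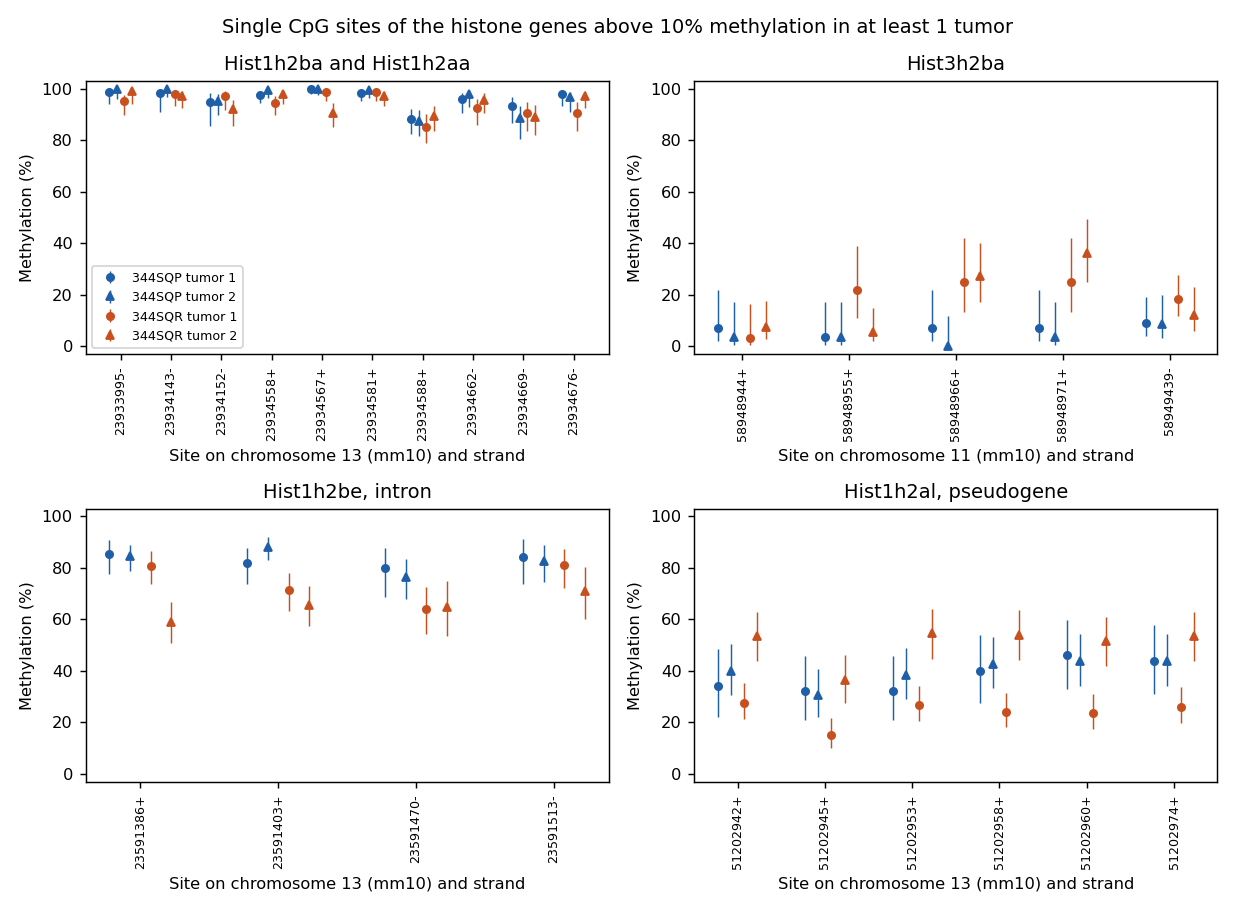
Points give methylation in percent at single CpG sites, placed in order of position on the horizontal axis, for each tumor, and bars are Wilson 95% intervals that cover counting error only. The testis pair stays near the top in every tumor, Hist3h2ba is higher in the 344SQR tumors at 58948966 and 58948971, and the tumors of 344SQR lie on either side of those of 344SQP at the pseudogene Hist1h2al.

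Hist1h2be, an H2B gene, is annotated as a long gene on the minus strand (chr13:23583670-23621124), and its 4 qualified sites lie in an intron, 29611 to 29738 bp from the 5′ end. They say nothing of its promoter. Methylation was 82.9% and 83.1% in the 344SQP tumors and 74.3% and 65.1% in the 344SQR tumors. The 344SQR tumors were lower and also farther apart. The means were 83.0% ± 0.141 and 69.7% ± 6.47 (SD, n = 2 each), a difference of -13.3 percentage points. The size of this difference depended on 344SQR tumor 2, at 65.1% against 74.3% in 344SQR tumor 1. The adjusted p was 2.54e-11 in the combined test and 0.419 in edgeR. Having fewer than 5 sites, the gene was named after its values were seen. The intron stretch, chr13:23591376-23591523 on the minus strand, holds 4 CpGs in 148 bases.
Hist1h2be intron: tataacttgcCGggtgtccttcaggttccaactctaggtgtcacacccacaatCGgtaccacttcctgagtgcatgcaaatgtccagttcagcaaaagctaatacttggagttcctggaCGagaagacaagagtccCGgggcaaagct

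Hist1h2al, a pseudogene of the H2A type apart from the main cluster (chr13:51202727-51203065, minus strand), was intermediate. Its 6 sites, which lie within a single 54-base stretch, averaged 38.0% and 40% in the 344SQP tumors and 23.9% and 50.6% in the 344SQR tumors. The 344SQR tumors were the lowest and the highest of the 4. The means were 39.0% ± 1.41 and 37.2% ± 18.9 (SD, n = 2 each), so the difference of -1.76 percentage points was far smaller than the spread within 344SQR. The combined test gave an adjusted p of 0.0291 and edgeR 0.930. The call was lost at equal depth (difference -2.58, adjusted p 0.414) and without 344SQP tumor 2 (-0.766, 0.328). Without 344SQR tumor 1 the difference was 11.6 percentage points, called in the opposite direction (adjusted p 5.10e-05), and without 344SQR tumor 2 it was -15.1. The stretch chr13:51202932-51202985 is given on the minus strand, with the measured CpGs in capitals.
Hist1h2al: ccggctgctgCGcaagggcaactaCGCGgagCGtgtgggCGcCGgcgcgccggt

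The 21 genes under 10% in every tumor were grouped by that level after it was seen, and are described without a test of the group. Their values ran from 0.262% to 9.97%, and their mean was 2.08% and 2.14% in the 344SQP tumors and 2.02% and 2.06% in the 344SQR tumors. Differences between the lines ran from -1.47 to 1.35 percentage points. Of their 246 distinct sites, 217 (88.2%) had a mean under 5% and 76 had no methylated read in any tumor.

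The linker histone genes, whose products bind the DNA between nucleosomes, were the best covered class. Hist1h1b had 31 sites, Hist1h1c 23, Hist1h1d 13 and Hist1h1e 34, and their highest value in any tumor was 2.18%. Hist1h1e stood at 1.01%, 0.882%, 1.01% and 1.61%. The mean difference was 0.364 percentage points, with an adjusted p of 0.221 in the combined test. Tumor 1 of the lines differed by less than 1 read is worth, and without 344SQR tumor 2 the difference was 0.0646. Hist1h1a (ENSMUSG00000049539) was the highest of the 5 with a qualified site, at 7.26% and 9.97% in the 344SQP tumors and 7.96% and 7.20% in the 344SQR tumors. The tumors of the lines overlapped, and the difference of -1.04 percentage points had an adjusted p of 0.128. Without 344SQP tumor 1 it was -2.39 and was called lower (adjusted p 0.0478), and without 344SQP tumor 2 it was 0.319.

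The level of Hist1h1a came from 2 neighboring sites. At 23764094 it was 43.1%, 56.8%, 46.9% and 41.0% in the 4 tumors, on 125 to 175 reads, and at 23764104 it was 22.1%, 37.4%, 27.6% and 23.8%. The other 9 sites were under 10% in every tumor. All 11 sites lie in the coding region, and the stretch chr13:23764009-23764114 on the plus strand shows both sites as the last CpGs in capitals.
Hist1h1a: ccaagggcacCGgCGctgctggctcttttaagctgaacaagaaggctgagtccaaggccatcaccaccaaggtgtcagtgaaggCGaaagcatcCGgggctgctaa

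Among the H2A and H2B genes of the Hist2 cluster on chromosome 3, Hist2h2ac and Hist2h2be share 8 sites and stood at 1.85%, 1.13%, 1.15% and 2.41%. Hist2h2aa1 was the last gene called lower, at 3.60% and 1.91% in the 344SQP tumors and 1.91% and 1.57% in the 344SQR tumors. Its difference of -1.01 percentage points came mainly from 344SQP tumor 1. The lower 344SQP tumor and the higher 344SQR tumor were at 1.908% and 1.906%, closer than 1 read is worth, and its adjusted p was 0.00779 in the combined test and 0.483 in edgeR. It was named after its values were seen. Hist2h2ab stood at 4.82%, 3.31%, 3.58% and 2.71%. In the Hist1 cluster, Hist1h2bh was at 1.01% and 1.96% in the 344SQP tumors and 2.88% and 2.21% in the 344SQR tumors, without overlap, with an adjusted p of 0.0781.

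The H3 genes were also low. Hist1h3d, with 6 sites around its 5′ end, was the other gene called higher, at 2.86% and 2.42% in the 344SQP tumors and 4.60% and 3.37% in the 344SQR tumors. The means were 2.64% ± 0.311 and 3.99% ± 0.869 (SD, n = 2 each). The adjusted p was 0.0398 in the combined test and 0.606 in edgeR, and the call was lost without 344SQP tumor 2 (difference 1.13, adjusted p 0.422) and without 344SQR tumor 1 (0.733, 0.407), against a difference of 1.35 with all tumors. Hist2h3c2 had both 344SQR tumors lower, at 2.21% and 3.09% against 3.51% and 3.40% in the 344SQP tumors, with an adjusted p of 0.0576. Hist1h3e and Hist1h3f stayed under 2.37% in every tumor.

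Of the H4 genes, Hist4h4 on chromosome 6 had the lowest mean level of all 26, at 0.510%, 0.262%, 0.420% and 0.349%. Only 18 of the 25428 genes had a lower mean level. In 344SQP tumor 1 taken alone, the H3 gene Hist1h3f was lower, at 0.463%. Hist1h4c stood at 0.625%, 4.05%, 0.690% and 1.05%, so its difference of -1.47 percentage points came from 344SQP tumor 2, without which it was 0.246. Without 344SQP tumor 1 it was -3.18 and was called lower (adjusted p 0.0488). Hist2h4 was at 2.43%, 1.63%, 2.11% and 2.73%, and Hist1h4i at 1.59%, 1.34%, 1.36% and 1.25%. Hist1h4a had 39 sites, the most of any member, all upstream of the gene, and stood at 1.50%, 2.17%, 1.48% and 1.62%.

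The upstream stretch of Hist1h4a is shown as an example of a nearly unmethylated promoter, chr13:23761261-23761448 on the minus strand, with the 20 measured CpGs in capitals.
Hist1h4a: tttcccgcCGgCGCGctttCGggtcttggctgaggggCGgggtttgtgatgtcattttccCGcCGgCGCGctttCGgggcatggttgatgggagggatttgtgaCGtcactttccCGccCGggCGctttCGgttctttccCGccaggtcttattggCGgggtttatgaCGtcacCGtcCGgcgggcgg

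At single sites, 13 of the 271 distinct sites were called lower in 344SQR, against 18.4% of all qualified sites, and 6 were called higher, against 6.04%. Hist1h2be held 3 of the sites called lower and Hist3h2ba 2 of those called higher. In Hist1h4a, 3 sites were lower. The site at 23761269, 39 bp upstream, went from 7.14% and 19.0% in the 344SQP tumors to 3.54% and 4.11% in the 344SQR tumors.

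The 21 low genes had median site levels under 1% at each distance from the 5′ end. The median was 0.551% from -250 to -1 bp of the 5′ end (52 sites of 8 genes), 0.236% from 0 to 250 bp (110 sites of 11 genes) and 0.684% from 251 to 500 bp (25 sites of 6 genes). Sites in windows of several genes are counted for each. The median observed to expected CpG ratio of the windows was 0.674 in the 26 genes with a qualified site and 0.815 in the 44 without.

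RefSeq promoters of GRCm38.p6, from 250 bases before to 50 after the start, were found for 61 of the 70 genes (62 promoters). TATAA or its reverse complement TTATA occurred in 49 of them (79.0%) and in 24.9% of all 32851 promoters. CCAAT or its reverse complement ATTGG occurred in 53 (85.5%) and in 37.4% of all promoters. The promoters of Hist1h2ba and Hist1h2aa held both motifs.

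The promoter window gave 5 calls among the 23 histone genes with a site there, 4 lower (28.7% of all genes) and 1 higher (8.91% of all genes). Other histone genes were read in the same window, where the median difference over all genes was -0.226 percentage points. Of 12 genes listed as replication-independent histone genes, 10 had a site. Among these, 2 were lower and 1 was higher by the combined test, with a median difference of -0.0459 percentage points, and 7 were under 5% in every tumor (all genes 52.6%). edgeR called 0 of the 10, also at an unadjusted p under 0.05 (all genes 8.81%). H2afy2, a macroH2A gene, was called lower, at 13.3% and 18.6% in the 344SQP tumors and 10.3% and 16.7% in the 344SQR tumors, with overlap. H2afy, also macroH2A, rested on 1 site, at 5%, 19.8%, 13.5% and 22.5%. H1fx, a linker histone gene, stood at 3.61%, 5.14%, 5.24% and 6.29%. The other calls were H1f0, with a difference of -0.568 percentage points, and H2afz, with 0.211, both named after their values were seen.

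Testis and germline genes for chromatin proteins outside the clusters were also methylated, though less evenly than the testis pair. Of those with a site, H1fnt and H2afb3 encode histones, and Tnp1, Tnp2 and Prm2 encode transition proteins and a protamine. Of 14 in the annotation, 5 had a site, and 3 were lower and 2 higher in 344SQR by the combined test (all genes 28.7% and 8.91%), with none under 5% in every tumor (all genes 52.6%). The genes called lower were Tnp1, H1fnt and H2afb3, and those called higher were Tnp2 and Prm2. H2afb3 stood at 89.1%, 95.7%, 91.2% and 78.8%. The protamine gene Prm2 stood at 74.0% and 83.3% in the 344SQP tumors and 84.2% and 90.7% in the 344SQR tumors. The transition protein gene Tnp1, on 2 sites, stood at 85.7%, 58.7%, 61.3% and 35.3%, and Tnp2, on 1 site, at 37.2%, 76.3%, 84.9% and 78.8%. H1fnt, a linker histone gene of spermatids named after its values were seen, stood at 76.9%, 66.9%, 65.3% and 51.3%. The median difference of the 5 genes was -7.39 percentage points, which is the value of H2afb3 and came mainly from 344SQR tumor 2. edgeR called 0 of these 5, also at an unadjusted p under 0.05 (all genes 8.81%).

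Genes that drive histone transcription or process the 3′ ends of histone messages had little methylation. Of 17 with a site, 16 were under 5% in every tumor (all genes 52.6%), and the combined test called 0 lower and 0 higher (all genes 28.7% and 8.91%), with 1 at an unadjusted p under 0.05 (all genes 42.8%), while edgeR called 0, with 0 unadjusted (all genes 8.81%). Cstf2, a cleavage factor gene, was the exception in level, at 27.7%, 12.9%, 24.3% and 13.5%, higher in tumor 1 than in tumor 2 of each line. Ccne1, which encodes cyclin E, stood at 2.34%, 3.28%, 2.29% and 3.25%, and Sympk at 1.89%, 1.66%, 1.70% and 2.10%. The difference was most positive for Casp8ap2, at 0.810 percentage points, with an adjusted p of 0.224.

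Of 21 histone chaperone genes with a site, 19 were under 5% in every tumor (all genes 52.6%), and Npm2 and Rbbp7 were called lower and Hira higher (all genes 28.7% and 8.91%). Hira was named after its values were seen. edgeR called 0 of the 21, with 1 at an unadjusted p under 0.05 (all genes 8.81%). Npm2, an oocyte chaperone gene, was lower, at 15.5% and 20.8% in the 344SQP tumors and 11.1% and 4.40% in the 344SQR tumors, without overlap. Rbbp7 stood at 18.0%, 17.1%, 16.9% and 10.4%, and Nasp, a chaperone of H3 and H4, at 2.04%, 1.89%, 2.28% and 3.16%. The difference was most positive for Nasp, at 0.758 percentage points, with an adjusted p of 0.137.

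Values that can follow the makeup of the tissue differed between the tumors. Calls on the Y chromosome, which female hosts lack, were 0.0406% and 0.0254% of all calls in the 344SQP tumors. They were 0.0555% and 0.0178% in the 344SQR tumors, and so higher in tumor 1 of each line. Calls on the X chromosome were 1.59% and 1.28% in the 344SQP tumors and 1.51% and 1.18% in the 344SQR tumors. They too were higher in tumor 1 of each line. The sex of the tumor lines is not given in the labels. Among the leukocyte markers, the promoter of Cd3e stood at 81.1%, 75.8%, 81.5% and 46.6%. Of the epithelial and lung markers, 3 of 5 had a site: Epcam stood at 4.71% and 5.36% in the 344SQP tumors and 16.8% and 16.2% in the 344SQR tumors, Cdh1 at 6.24%, 6.04%, 5.76% and 5.83%, and Nkx2-1 at 6.75%, 14.0%, 7.24% and 7.31%. Of the fibroblast and endothelial markers, 1 of 3 had a site, Pdgfrb, at 27.4%, 26.4%, 23.9% and 24.2%. By the combined test in the promoter window, Cd3e and Nkx2-1 were lower and Epcam was higher in 344SQR (all genes 28.7% and 8.91%). The lines overlapped for Cd3e, lower only through 344SQR tumor 2, and for Nkx2-1, lower only through 344SQP tumor 2. Of the 5 marker genes given here, edgeR called 0 in that window, with 1 at an unadjusted p under 0.05 (all genes 8.81%). Promoter methylation is not expression and names no cell type by itself. The part of tissue makeup in the differences between tumors, such as that between the 344SQR tumors at Hist1h2al, was not tested.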

How the data were processed

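RRBS libraries of 2 344SQP and 2 344SQR tumors were sequenced as 50-base single reads. The submitters' processing notes name Trim Galore 0.4.1, cutadapt 1.9.1, Bismark, Bowtie 1.1.2 and methylKit, with build mm10. For each CpG cytosine, kept apart by strand, the authors deposited the coverage as a count of reads. The authors also deposited the percent of those reads with C (methylated) and with T. Methylated reads were recovered here as coverage times percent, rounded to whole reads.

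Genes came from GENCODE vM21 basic, and the reference base matched at all 1081201 qualified sites (100%). Gene values are means over qualified sites. The combined test (likelihood ratio per site, Stouffer's z per gene, Benjamini-Hochberg adjustment over all genes) took p-values no smaller than 2.2e-16. It takes the sites of a gene as independent, though neighboring sites can lie on the same reads, as at Hist3h2ba and Hist1h2al. edgeR 4.0.16 in R 4.3.3 tested methylated and unmethylated reads summed per gene. Python 3.11.15, numpy 2.4.6 and scipy 1.17.1 were used, and both tests were tested on simulated data. With spread between tumors added there, the combined test also called many unchanged genes, and edgeR missed most of the changed ones. The genes changed there had intermediate methylation. The simulation therefore does not show how often either test finds a change in genes with almost no or almost full methylation. Tumors of a line were not copies of each other: 24.6% of sites in 344SQP and 28.9% in 344SQR had p under 0.05 between both tumors.

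Named genes were Hist1h1t, Hist1h2ba and Hist1h2aa and, among members with at least 5 sites, the 5 lowest and 5 highest differences, the 5 highest and 3 lowest levels, and any edgeR call; in the other lists, the largest difference in each direction and the 3 highest levels. A leukocyte marker is not reported here. Members and lists were chosen with earlier results of these data known. Alternatives were coverage minimums of 10 and 50, merged strands, the promoter window, equal depth, summed reads, each tumor left out, at least 5 sites, edgeR and a replicate block.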

Additional observations from a re-analysis of the deposited data

How the results depend on the processing

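The count of 7 histone genes called by line was 6 to 8 with each tumor left out and 0 with edgeR. Calls in the higher direction, 2 in all, were 0 at a minimum of 50 reads, 1 in the promoter window and 1 at equal depth. Hist3h2ba had no site at 50 reads and so was not tested there. Hist1h3d kept its direction, with differences of 1.50 at 50 reads (adjusted p 0.0585), 1.35 in the promoter window (0.0577), 1.83 at equal depth (0.0906) and 0.733 without 344SQR tumor 1 (0.407). Hist1h2ba kept its direction and, in the combined test, its call, while edgeR did not call it (adjusted p 0.480), with differences from -1.83 to -2.31 percentage points with each tumor left out. Hist1h1t had no value under any planned setting. The mean difference of the members, -0.293, was -0.906 at a minimum of 50 reads, 0.297 in the promoter window, 0.202 over members with at least 5 sites, and, chosen after seeing the data, 0.309 without Hist1h2be and Hist1h2al. With each tumor left out it ran from -0.646 to 0.0605. Its sign therefore depends on the setting. Hist1h2ba minus the other members was 87.0 in the promoter window against 84.8. The cause of these shifts was not tested.

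Also chosen after seeing the data were the settings for single sites. Sites called lower (13) were 6 at equal depth and 6 to 16 with each tumor left out, and sites called higher (6) were 2 to 14. In edgeR, the calls over all genes were 8 in the promoter window, 36 without 344SQP tumor 1 and 2 without 344SQP tumor 2; a lone tumor is there assumed to vary like the others.

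Directions turned for Hist1h2al (-15.1 to 11.6 with each tumor left out), Hist1h4c (-3.18 to 0.246), Hist1h1a (-2.39 to 0.319, and 0.179 with summed reads), Hist2h4 (-0.0173 to 0.788) and Hist4h4 (-0.125 to 0.122, and 0.329 at 50 reads, 0.0872 at equal depth and 0.0156 with summed reads).

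Nothing in the labels pairs tumors by replicate number. With the number as a block, calls in the higher direction were 1, the adjusted p was 0.897 for Hist1h2al and 0.110 for Hist1h3d, sites called lower 8, and edgeR called 0 members and 4831 of all genes (2268 in the promoter window). With that block, edgeR's adjusted p was 0.0557 for Hist3h2ba and 0.0702 for Hist1h2be, against 0.370 and 0.419 without it. Across 25428 genes, which are not independent, deviations of same-numbered tumors correlated at 0.638, and across the members at 0.264.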
